A study of Mus musculus with 2 samples.

Results

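Lhx2, Edar, Lef1, Sox9, Wnt10a, Wnt10b, Dkk4, Foxi3 and Sostdc1 are 9 genes known for the hair follicle fate of embryonic epidermis, among 21938 protein-coding genes of the annotation. Chromatin accessibility at these genes was followed in single cells of mouse back skin. Their regions were taken by position alone: every peak of either library that lay within 500 bp of a transcription start site, inside the gene body, or within 50 kb of the gene in mm10. After the 2 peak lists were merged this gave 319 of 369634 regions, from 245 Control peaks and 280 MOF cKO peaks. Of the 319 regions, 203 held a peak in both libraries and could be compared, and 160 of these were distal, with every annotated start site over 2000 bp away.

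The libraries were single-cell ATAC-seq (10x Genomics, version 1 chemistry) from back skin of E16.5 embryos, 1 from Control and 1 from MOF cKO skin. MOF (Kat8) is a histone acetyltransferase that acetylates lysine 16 of histone H4, and the MOF cKO embryos were labelled MOFfl/fl/K14Cre, a floxed Mof deleted by a Cre recombinase under the keratin 14 promoter, which is active in epidermal keratinocytes and their descendants, hair follicle epithelium included, and not in dermal fibroblasts. Per the labels, cells of both genotypes carried K14-H2BGFP and were sorted into GFP-positive epithelial and GFP-negative non-epithelial cells, which were then mixed at 5 to 1; the study's text gives other mixing ratios, so the ratio is uncertain. The labels give the genotype of the Control embryos only as Control, and the study's text speaks of wildtype or heterozygous littermates without saying which were used here. Neither the number of embryos behind a library nor their sex was given in the labels. With 1 library per genotype, no difference has a replicate check and none was tested. The intervals given are exact 95% intervals for counting error only.

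The Control library held 2541 barcodes with a median of 62973 cut sites. The library of MOF cKO skin held 4348 with a median of 66239.5, and 21 barcodes occurred in both. Clusters of cells were named from accessibility at marker genes, with the 319 regions left out, and carry the ending "like". The epithelial-like cells (1294 in Control, 2560 in MOF cKO; 6 to 10 of 12 epithelial markers high in each cluster) and the fibroblast-like cells (659 and 1253; 9 to 10 of 12 fibroblast markers) were the 2 classes large enough in both libraries. The genotypes separated within the epithelial-like class: 1 cluster held 749 Control and 3 MOF cKO cells, another 544 and 24, and the 4 others 1159, 738, 553 and 83 MOF cKO cells with 1 Control cell among them. Levels are counts-per-million (CPM), the cut sites in a region scaled to those the class had in all shared regions. The level of the Kat8 promoter, which cannot show the deletion, stood in the epithelial-like class at 51.6 CPM (Control) and 37.8 CPM (MOF cKO), or -0.45 as a log2 ratio. In the Control epithelial-like class, 541 cells lay in sub-clusters with 3 to 10 of 22 hair follicle markers high (a list without the 9 genes) and were called hair-follicle-like. The sub-cluster of 228 cells had 10 markers high. Those of 77 and 236 cells had 4 and 3, so their name rests on few markers, with 3 as the minimum. No MOF cKO sub-cluster met that mark at resolution 1. At resolution 2, 1 MOF cKO sub-cluster of 37 cells did, against 445 Control cells. Because the GFP sort and remixing set the makeup of each library, and because a class is pooled, fewer cells of a type and lower accessibility per cell cannot be told apart in a class total.

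Hair follicles form when the surface ectoderm thickens into placodes in response to Wnt and ectodysplasin signals. Wnt ligands, among them Wnt10a and Wnt10b, act through beta-catenin and the DNA-binding partner Lef1, and the ectodysplasin receptor Edar signals through NF-kappaB. Secreted inhibitors such as Dkk4 and Sostdc1 space the follicles. Placodes also turn on the transcription factors Lhx2, Sox9 and Foxi3, which mark placode and follicle progenitors. A promoter holds the site where transcription of a gene starts, and distal regions include enhancers, which are often used in only some cell types.

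Distal regions with the lowest or highest change between the genotypes at a gene carry much of what follows, so the central 300 bases of 7 of them are shown. They are not the full set and were picked by no fixed rule, so the words in them do not stand for the regions not shown. The windows were read from GRCm38 on the plus strand. Distances are from the gene's 5′ end to the middle of the region, negative upstream. The region of Edar with the lowest change lay in an intron at 16.2 kb (chr10:58659319-58659618). The Lhx2 pair, one lower in MOF cKO at -49.1 kb (chr2:38289999-38290298) and one higher at -47.4 kb (chr2:38291706-38292005), were intergenic and neighbours. Start sites of other genes lay 2277 and 3987 bp from these regions, in that order, and those of Lhx2 48652 and 46948 bp. The Lef1 region lay upstream at -25.0 kb (chr3:131085278-131085577, higher). The others were the Dkk4 region at -6.6 kb (chr8:22617282-22617581, lower), the Foxi3 region at 11.1 kb (chr6:70967518-70967817, lower) and the Sostdc1 region at 4.9 kb (chr12:36318845-36319144, higher). Capitals mark words searched on both strands: CTTTGAA or CTTTGAT, read by TCF/LEF factors; TGACTCA, read by AP-1; TAATTA, read by homeodomain factors; ACAATGG, read by SOX factors; and TGTTTAC, read by forkhead factors.
Edar region lower in MOF cKO: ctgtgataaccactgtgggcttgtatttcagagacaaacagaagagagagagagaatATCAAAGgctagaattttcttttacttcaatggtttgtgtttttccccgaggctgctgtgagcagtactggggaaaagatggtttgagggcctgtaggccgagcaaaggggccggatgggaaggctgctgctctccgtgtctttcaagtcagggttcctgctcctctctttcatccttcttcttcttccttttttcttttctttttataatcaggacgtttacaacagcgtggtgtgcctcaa
Lhx2 region lower in MOF cKO: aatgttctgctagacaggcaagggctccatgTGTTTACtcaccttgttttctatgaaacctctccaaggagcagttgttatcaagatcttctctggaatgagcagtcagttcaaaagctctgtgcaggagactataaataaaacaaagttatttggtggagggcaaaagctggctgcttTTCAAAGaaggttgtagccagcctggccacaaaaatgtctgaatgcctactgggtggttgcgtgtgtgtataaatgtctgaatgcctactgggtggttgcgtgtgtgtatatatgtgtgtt
Lhx2 region higher in MOF cKO: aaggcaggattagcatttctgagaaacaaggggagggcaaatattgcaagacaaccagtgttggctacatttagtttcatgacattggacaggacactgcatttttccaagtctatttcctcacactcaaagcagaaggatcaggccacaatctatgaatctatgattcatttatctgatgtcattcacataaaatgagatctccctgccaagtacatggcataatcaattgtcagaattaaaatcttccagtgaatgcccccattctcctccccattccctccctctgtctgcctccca
Lef1 region higher in MOF cKO: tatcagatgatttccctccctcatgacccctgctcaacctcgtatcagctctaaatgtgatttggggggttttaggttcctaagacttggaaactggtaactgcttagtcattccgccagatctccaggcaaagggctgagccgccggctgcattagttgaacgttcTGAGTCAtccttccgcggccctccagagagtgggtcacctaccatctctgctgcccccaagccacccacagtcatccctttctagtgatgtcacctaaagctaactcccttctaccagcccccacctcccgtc
Dkk4 region lower in MOF cKO: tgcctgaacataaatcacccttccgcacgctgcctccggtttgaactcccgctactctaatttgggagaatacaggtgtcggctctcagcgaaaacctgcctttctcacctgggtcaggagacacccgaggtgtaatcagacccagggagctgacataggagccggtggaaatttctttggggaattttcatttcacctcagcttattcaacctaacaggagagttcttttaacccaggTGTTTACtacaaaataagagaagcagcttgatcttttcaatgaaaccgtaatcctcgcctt
Foxi3 region lower in MOF cKO: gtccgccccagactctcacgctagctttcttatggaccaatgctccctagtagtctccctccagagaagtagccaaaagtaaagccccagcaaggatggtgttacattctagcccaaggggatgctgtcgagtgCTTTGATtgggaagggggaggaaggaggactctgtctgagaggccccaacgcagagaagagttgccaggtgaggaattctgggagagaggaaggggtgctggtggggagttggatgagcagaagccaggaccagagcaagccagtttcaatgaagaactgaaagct
Sostdc1 region higher in MOF cKO: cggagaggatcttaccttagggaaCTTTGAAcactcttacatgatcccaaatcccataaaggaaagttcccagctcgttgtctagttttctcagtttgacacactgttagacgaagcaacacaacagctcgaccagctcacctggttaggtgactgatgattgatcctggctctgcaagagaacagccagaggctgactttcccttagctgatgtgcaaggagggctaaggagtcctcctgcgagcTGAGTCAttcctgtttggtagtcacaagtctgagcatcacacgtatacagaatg
The Edar, Lhx2 (lower), Foxi3 and Sostdc1 windows held a TCF/LEF word, the Lef1 and Sostdc1 windows an AP-1 word, and the Lhx2 (lower) and Dkk4 windows a forkhead word, while the higher Lhx2 window held none. Of the regions not shown, those with the lowest change at Lef1, Sox9 and Sostdc1 held no searched word. Those with the highest change at Sox9, Wnt10b, Dkk4 and Foxi3 held none either, while the others not shown held one.

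The first question was how promoters of the 9 genes differed between Control and MOF cKO epithelial-like cells. Changes are log2(MOF cKO/Control) of the levels in CPM. Of the 8 genes with a shared promoter region, 7 were lower in MOF cKO with an interval wholly below 0, as 75.3% of all promoters were, and Sox9 was higher with an interval wholly above 0, as 10.9% of all were. Sostdc1 was past 2-fold lower (-1.05), and none of the 8 was past 2-fold higher. Scaled by sites per cell Sostdc1 was at -0.96 and no promoter of the 8 was past 2-fold, while Wnt10a passed it too with the total of own peaks (-1.09) and with cells thinned to 5000 sites (-1.05). Over all 16163 promoters 2.07% were past 2-fold lower and 2.64% past 2-fold higher. Most promoters were lower in MOF cKO, with a median log2 change of -0.39, and the median of the 8 genes was -0.57.

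Among the receptor and the ligands, Edar and Wnt10b were close to the median promoter. Edar, the ectodysplasin receptor, stood at 24.5 CPM in Control (2378 sites) and 17.7 CPM in MOF cKO (3633 sites), a change of -0.47 (-0.57 to -0.36), which is -0.07 relative to the median of all promoters. The promoter of Wnt10b, a Wnt ligand of the early placode, stood at 43.9 CPM and 32.5 CPM, a change of -0.43 (-0.51 to -0.35) and -0.04 relative to all promoters. Their changes stood at percentiles 36.0 and 42.5 of all promoters. Wnt10a, the other ligand, stood at 16.7 CPM in Control and 8.65 CPM in MOF cKO, a change of -0.95 (-1.08 to -0.81). This was -0.55 relative to all promoters, at percentile 2.57. That value leaves out a start-site region at 1.8 kb, which had a peak in MOF cKO alone (10.8 CPM), and with start-site windows of 1000 bp in place of 500 bp the Wnt10a change was -0.65 (-0.74 to -0.57).

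Of the secreted inhibitors, Sostdc1 had the lowest change of the 8. Sostdc1, an antagonist of BMP and Wnt signals, stood at 16.6 CPM in Control and 8.02 CPM in MOF cKO, a change of -1.05 (-1.19 to -0.91) at percentile 1.71. Dkk4, a Wnt antagonist made in placodes, had a promoter peak in the Control library alone, so it has no MOF cKO value in the matrices and no change. In Control its promoter region held 413 sites in epithelial-like cells, or 4.26 CPM, and 19 sites in fibroblast-like cells, or 0.479 CPM. Of the 413 sites, 319 came from the hair-follicle-like cells (7.15 CPM) and 94 from the other epithelial-like cells (1.80 CPM).

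The 4 transcription factors gave both the highest change and some of the lowest. Lhx2, a LIM homeodomain factor of follicle progenitors, stood at 31.0 CPM in Control and 17.4 CPM in MOF cKO, a change of -0.84 (-0.94 to -0.74) at percentile 4.13. Lef1 stood at 51.2 CPM and 32.1 CPM, a change of -0.68 (-0.75 to -0.60) at percentile 9.53. The Foxi3 promoter, a forkhead gene of placodes, stood at 23.7 CPM and 18.7 CPM, a change of -0.35 (-0.45 to -0.24), and so lay within 0.05 of the median promoter. Sox9, an HMG-box factor of follicle stem cells, went the other way, from 19.5 CPM to 22.8 CPM, a change of 0.22 (0.11 to 0.33) at percentile 89.5. Its promoter region also lay within 500 bp of a start site of BC006965, so the signal is not that of Sox9 alone. Scaled to all sites in each library's own peaks, the Sox9 change was 0.08 and its interval held 0.

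**Figure D1:**
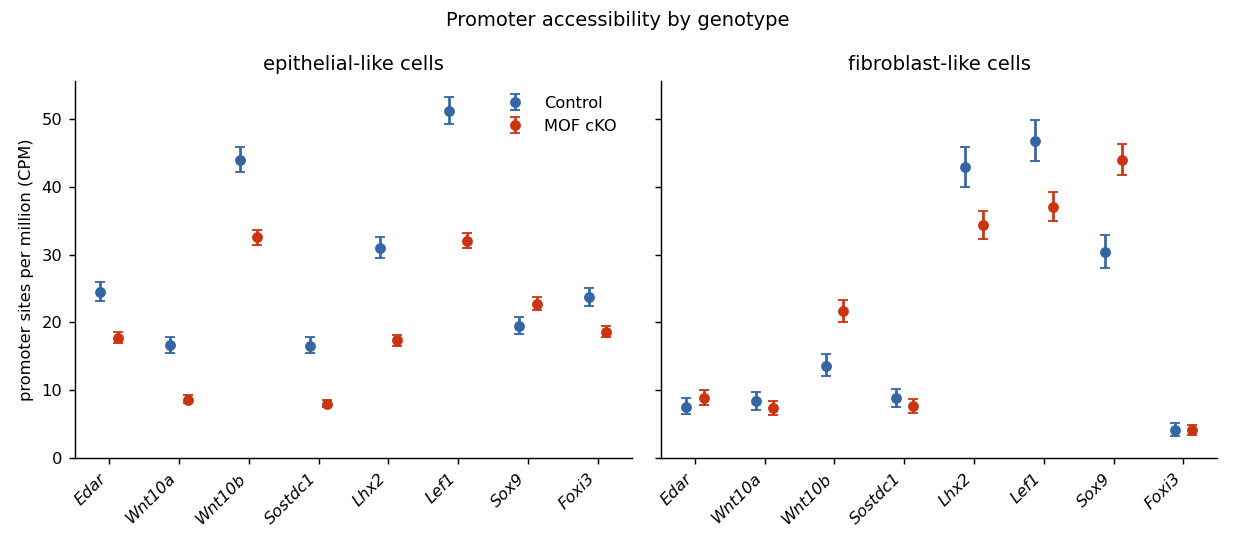
Promoter accessibility of each gene in epithelial-like and fibroblast-like cells. The vertical axis gives cut sites as CPM, each point is 1 library (Control or MOF cKO) and bars are exact 95% Poisson intervals on fragments. In epithelial-like cells the MOF cKO point lies below Control for 7 genes, from -0.35 for Foxi3 to -1.05 for Sostdc1 on the log2 scale, and above it for Sox9.

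Genes with 2 shared promoter regions did not always change evenly. The Lef1 region at -0.1 kb stood at 28.7 CPM in Control and 12.9 CPM in MOF cKO (log2 change -1.15, -1.26 to -1.04), while the one at 1.9 kb stood at 22.5 and 19.2 CPM (-0.23, -0.34 to -0.12). The region at 1.9 kb also lay within 500 bp of a start site of Gm43352. In fibroblast-like cells the same Lef1 regions changed by -1.005 and 0.06, so the region at the first start was the lower one in MOF cKO in both classes. At Lhx2 the region at the first start changed by -0.59 (-0.83 to -0.35) and the region at an internal start, at 11.7 kb, by -0.89 (-0.997 to -0.78).

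The distal regions of the 9 genes were mostly lower in MOF cKO epithelial-like cells, while distal regions of the genome were about evenly divided. The median log2 change in epithelial-like cells was -0.48 over the 160 distal regions and 0.06 over all 165620 distal regions with at least 20 sites. Of the 160, 36 (22.5%) were past 2-fold lower in MOF cKO, where 9.16% of all distal regions were, and 14 (8.75%) were past 2-fold higher, where 21.4% of all were. Of the 2560 MOF cKO cells, 235 lay in sub-clusters with fibroblast (8 of 12) or immune (7 of 10) markers high, and without them the median was -0.45, with 40 lower and 14 higher. The interval lay wholly below 0 for 96 of the 160 regions, wholly above 0 for 21 and held 0 for 43, beside 26.5%, 33.8% and 39.8% of all distal regions. The regions of 1 gene share a locus and the cells, so they are not independent measurements.

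The genes differed in how their distal regions moved. Edar had 19 distal regions with a median of -0.66, of which 6 were past 2-fold lower and 2 past 2-fold higher. Lef1 had 36 with a median of -0.57 (11 lower, 5 higher), Sostdc1 18 with a median of -0.64 (6 lower, 3 higher), and Wnt10b 19 with a median of -0.61 (2 lower, 1 higher). At each of these 4 genes, and at Lhx2 and Foxi3 below, regions past 2-fold lower and past 2-fold higher lay in the same locus. Dkk4 had 8 with a median of -0.81 (3 lower, none higher), Lhx2 24 with a median of -0.37 (5 lower, 2 higher), and Foxi3 14 with a median of -0.47 (1 lower, 1 higher). The distal regions of Wnt10a (13, median -0.16) and Sox9 (9, median -0.06) were closest to that of all distal regions, with 1 past 2-fold lower at each and none higher. These medians weigh every region alike. Summed over its distal regions, Sostdc1 went from 95.3 CPM in Control to 100.2 CPM in MOF cKO (0.07, 0.02 to 0.12). The summed change was -0.13 at Lef1 and 0.10 at Sox9, where the interval held 0. At the other genes it lay between -0.71 (Dkk4) and -0.24 (Foxi3).

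**Figure D2:**
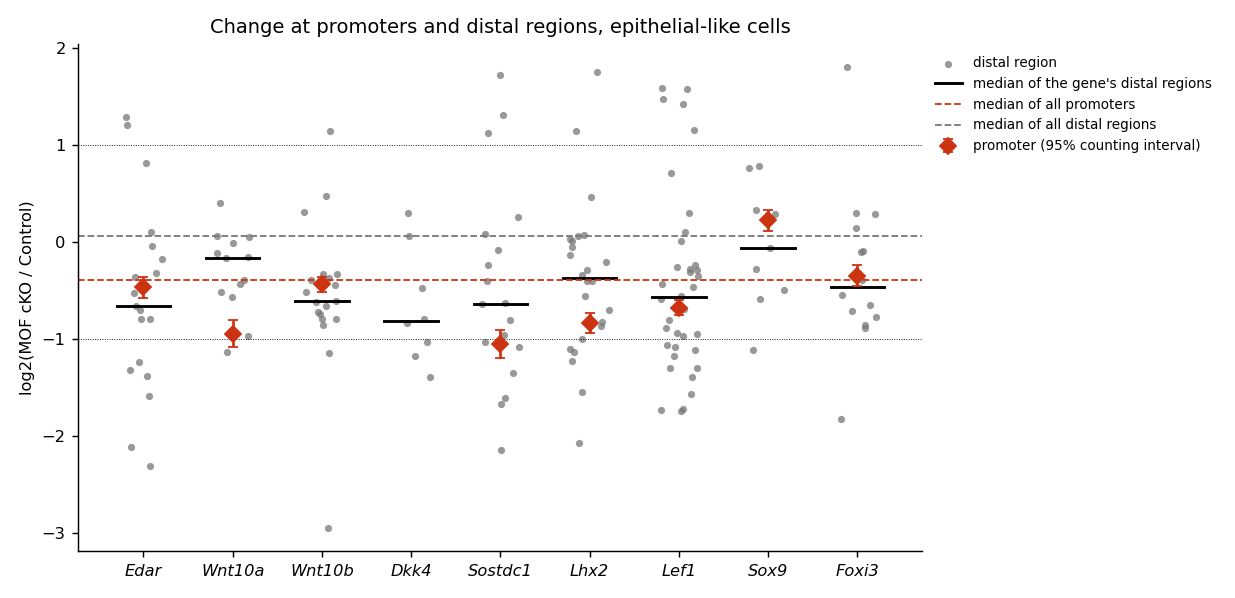
log2(MOF cKO/Control) in epithelial-like cells at each gene's promoter (1 value a gene) and at each of its distal regions (1 point a region), with the medians of all promoters (-0.39) and all distal regions (0.06) as dashed lines, 2-fold as dotted lines and the median of each gene's distal regions as a black bar. The points of Edar, Lef1, Sostdc1, Wnt10b, Lhx2 and Foxi3 spread past 2-fold on both sides, and at Wnt10a, Dkk4 and Sox9 none is past 2-fold higher.

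At all 9 genes the region with the lowest change, among the gene's 7 to 36 regions with at least 100 sites, was past 2-fold lower. Each is the extreme of several regions, and 9.16% of all distal regions were past 2-fold lower. The intervals do not allow for that choice, and how many other genes have such a region was not computed. The Edar intron region at 16.2 kb, one of the windows printed with a TCF/LEF word, went from 9.01 CPM in Control (874 sites) to 1.82 CPM in MOF cKO (373 sites), a change of -2.31 (-2.57 to -2.06). At Wnt10b the region at 35.7 kb, which overlaps an exon of the neighbouring gene Arf3, went from 11.3 CPM to 1.46 CPM, a change of -2.95, the lowest of the 160. The Sostdc1 region at 47.9 kb went from 6.04 to 1.37 CPM (-2.14), and the Lhx2 region at -49.1 kb from 9.17 to 2.18 CPM (-2.07). The lowest changes were smaller in size at Foxi3 (11.1 kb, 6.10 to 1.72 CPM, -1.83) and Dkk4 (-6.6 kb, 9.17 to 3.49 CPM, -1.39). At Wnt10a (-37.2 kb, 1.96 to 0.894 CPM) and at an exon of Sox9 (2.9 kb, 4.37 to 2.02 CPM) the changes were -1.13 and -1.12. Regions were assigned by position, and which gene a region serves was not tested. For these regions of Edar, Sox9, Dkk4 and Foxi3 the nearest start site was the gene's own. For those of the other genes a start site of another gene was nearer. The distances were 13796 against 34189 bp at Wnt10b and 11437 against 47438 bp at Sostdc1.

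Other regions of the same genes were higher in MOF cKO. The Sostdc1 region at 4.9 kb, just past the 3′ end of the gene, went from 6.04 CPM in Control (586 sites) to 20.02 CPM in MOF cKO (4098 sites), a change of 1.73, where the Sostdc1 promoter had -1.05. The highest change of Lhx2 was at -47.4 kb (2.02 to 6.83 CPM, 1.76), beside its lowest at -49.1 kb. Fibroblast-like cells moved the same way at both, by 2.16 (1.62 to 2.74, from 1.61 to 7.20 CPM) at -47.4 kb and by -1.69 (-3.08 to -0.34, from 0.782 to 0.242 CPM on 31 and 15 sites) at -49.1 kb. Over the 9 regions with the lowest change, the fibroblast-like interval held 0 at 8 and lay below 0 at 1. Over the 8 with the highest change that had 20 sites, it held 0 at 5 and lay above 0 at 3. The highest change of Foxi3 was at -15.9 kb (1.37 to 4.80 CPM, 1.81). The Lef1 region at -25.0 kb went from 5.52 to 16.6 CPM (1.59), and the Edar intron region at 38.8 kb from 3.15 to 7.69 CPM (1.29). Edar also held an adjoining pair with opposite changes, chosen after its values were seen: the region at 23.4 kb went from 39.9 to 16.0 CPM (-1.32) and the one at 24.4 kb from 12.1 to 21.2 CPM (0.81). The highest change at Wnt10b was 1.15, in an intron of Prkag1 at -45.4 kb. At Sox9, Wnt10a and Dkk4 the highest changes were 0.79, 0.41 and 0.30, and the interval of each held 0. The regions with the highest change at Lhx2, Wnt10b, Sox9, Wnt10a and Dkk4 lay nearer to a start site of another gene.

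**Figure D3:**
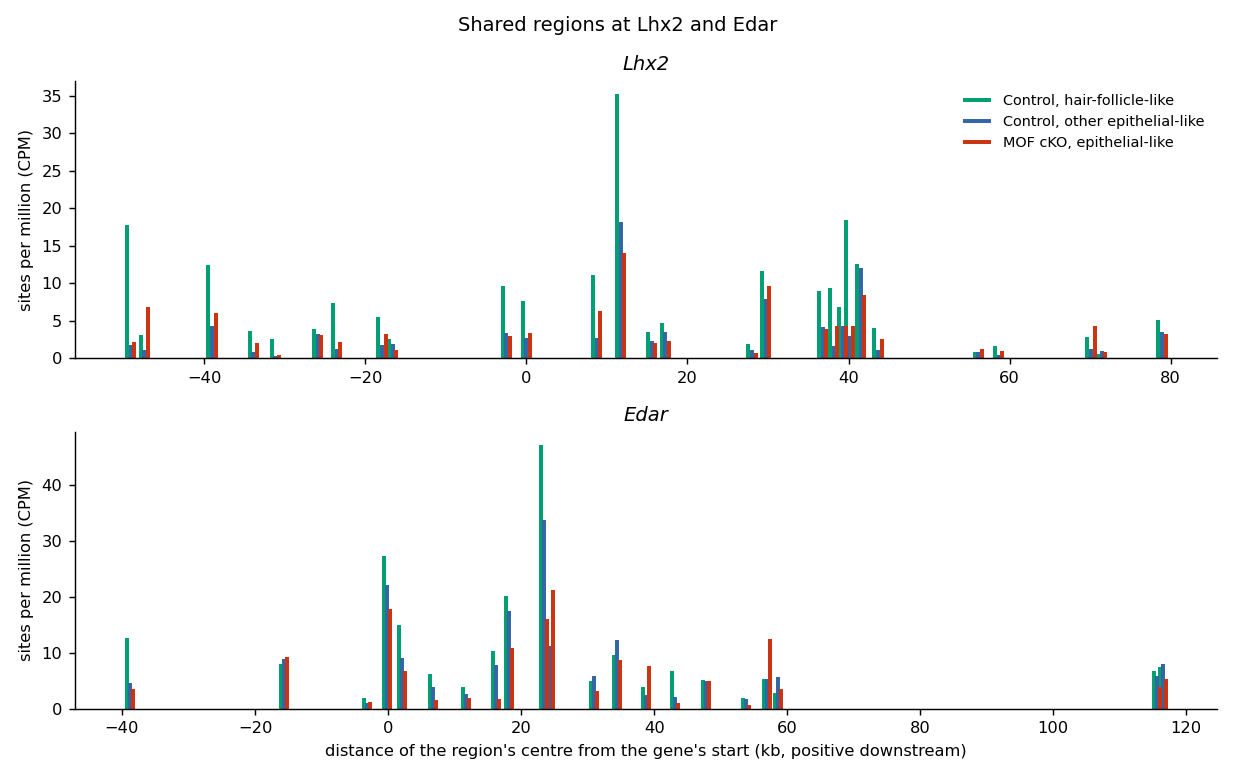
Shared regions at Lhx2 and Edar by distance of the region's centre from the gene's start (kb, positive downstream), with cut sites as CPM on the vertical axis for Control hair-follicle-like, other Control epithelial-like and MOF cKO epithelial-like cells. At Lhx2 the region at -49.1 kb is tall in the hair-follicle-like cells alone (17.8 CPM), while at Edar the region at 16.2 kb is tall in both Control groups and at 1.82 CPM in MOF cKO.

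How accessible these regions were in follicle cells was asked within the Control library, where hair-follicle-like cells were set against the other 753 epithelial-like cells. The 9 genes took no part in defining those cells. Median depth was 79628 sites in the hair-follicle-like and 67365 in the other cells. In the direction hair-follicle-like over other, the median log2 difference was 0.45 over the 8 promoters against 0.07 over all promoters, and 0.19 over the 160 distal regions against -0.14 over all. Past 2-fold higher were 2 of the 8 promoters, beside 3.17% of all, and 35 of the 160 distal regions, beside 11.7% of all. Past 2-fold lower were no promoter, beside 1.54% of all, and 7 distal regions, beside 13.8% of all. With every cell thinned to 5000 sites, 85 of the 160 distal regions still had 20 sites, and 18 of these (21.2%) were past 2-fold higher, beside 11.1% of all distal regions treated alike.

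Foxi3 and Lhx2 were the promoters past 2-fold. Foxi3 stood at 33.4 CPM in hair-follicle-like and 15.4 CPM in the other epithelial-like cells, a difference of 1.11 (0.94 to 1.29). Lhx2 stood at 42.8 and 20.96 CPM, a difference of 1.03 (0.88 to 1.19). Sox9 followed with 25.8 and 14.1 CPM (0.87), Wnt10a with 20.4 and 13.5 CPM (0.60) and Edar with 27.3 and 22.1 CPM (0.30). The promoters of Lef1 (0.03), Wnt10b (0.00) and Sostdc1 (-0.16) had intervals that held 0. For Lef1 this sum joined regions that differed in opposite directions, -0.27 (-0.43 to -0.12) at -0.1 kb and 0.42 (0.24 to 0.59) at 1.9 kb. For Wnt10b it joined -0.24 (-0.45 to -0.04) at 0.25 kb and 0.15 (-0.01 to 0.31) at 1.7 kb.

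By the median over their distal regions, Lhx2 and Sox9 had the largest differences of the 9 genes. Of the 24 distal regions of Lhx2, 14 were past 2-fold higher in hair-follicle-like cells and 19 had an interval above 0, with a median of 1.35. Sox9 had 5 of 9 past 2-fold higher and 4 with an interval above 0, with a median of 1.41. Over all distal regions the interval was above 0 for 15.9%. At the other 7 genes the medians lay between -0.18 and 0.28, although single regions stood out, such as the Dkk4 region at -6.6 kb with 14.1 CPM in hair-follicle-like and 4.95 CPM in the other cells (1.51). Among regions chosen after their values were seen, the Foxi3 region at 20.2 kb (1.75 against 0.287 CPM, 2.61) and the Sostdc1 region at 30.2 kb (2.40 against 0.401 CPM, 2.58) had larger differences at lower levels. The Lhx2 region at -49.1 kb had the largest difference of all 160, 17.8 against 1.82 CPM (3.29, 2.84 to 3.74).

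Because no MOF cKO cells were named hair-follicle-like at resolution 1, the genotypes were also compared without these 541 Control cells, a comparison added after the data were seen. It shares its Control cells with the comparison within Control, so their values stand side by side and neither supports the other. All 2560 MOF cKO cells were kept, the 37 named hair-follicle-like at resolution 2 among them. Lhx2, Sox9 and Foxi3 had more accessible promoters in the Control cells left out, so their changes rise by that choice alone. The promoter values are therefore a description. The promoter changes were -0.27 for Lhx2, -0.32 for Edar, -0.66 for Lef1, 0.69 for Sox9, -0.64 for Wnt10a, -0.43 for Wnt10b and -1.12 for Sostdc1. Foxi3, at -0.35 with all epithelial-like cells, was at 0.27 (0.12 to 0.43). The median of the 8 was -0.38, beside -0.35 over all promoters, and Sostdc1 was again the one promoter past 2-fold, beside 2.1% of all lower and 3.44% higher.

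The distal regions were also taken apart by their level in hair-follicle-like cells. Regions chosen as high in the cells that are then left out lose Control accessibility by that choice alone, so the values below are a description. The 35 regions that were 2-fold higher in hair-follicle-like cells had a median change of -0.55 with all epithelial-like cells, 13 of them past 2-fold lower and 2 past 2-fold higher. Without the hair-follicle-like cells their median was 0.51, with 3 past 2-fold lower and 11 higher. The other 125 distal regions kept a median of -0.44 in the first comparison and -0.43 in the second (23 lower and 12 higher, then 24 lower and 11 higher). Over all distal regions the same choice gave 18598 regions, whose median went from -0.23 to 0.79, with 23.8% past 2-fold lower and 17.3% higher at first and 3.11% and 42.8% without the hair-follicle-like cells. For the 35 these shares were 37.1% and 5.71%, then 8.57% and 31.4%. The remaining 141031 distal regions had medians of 0.06 and -0.02. Over all 160 the count without hair-follicle-like cells was 27 lower and 22 higher, beside 8.63% and 22.8% of all distal regions. The part of cell makeup in the changes of the 35 was not tested.

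Single regions differed in their values without the hair-follicle-like cells. Of the 9 regions with the lowest change at each gene, 7 still had an interval wholly below 0 without these cells and 2 had one that held 0. They were chosen by a comparison that shares all MOF cKO cells and 753 Control cells with this one. Their staying below 0 is therefore partly set by that choice. No share over regions chosen alike was computed, so the values are a description. Without the hair-follicle-like cells the Lhx2 region at -49.1 kb changed by 0.27 (-0.20 to 0.74), so no difference between MOF cKO and the remaining Control cells was detectable there. The Edar region at 16.2 kb still changed by -2.11, the Wnt10b region at 35.7 kb by -2.06, the Sostdc1 region at 47.9 kb by -2.64 and the Foxi3 region at 11.1 kb by -1.18. The Dkk4 region at -6.6 kb lay between, at -0.50 (-0.80 to -0.21).

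**Figure D4:**
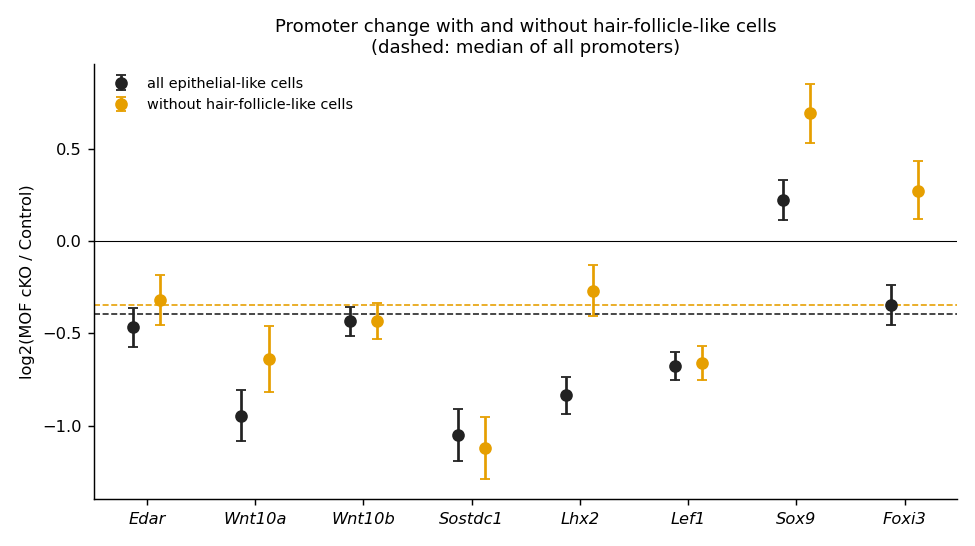
Promoter change of each gene, log2(MOF cKO/Control), with all epithelial-like cells and without the 541 Control hair-follicle-like cells; bars are exact 95% intervals for counting error and dashed lines the medians of all promoters (-0.39 and -0.35). Lhx2 moves from -0.84 to -0.27 and Foxi3 from -0.35 to 0.27, while Lef1, Wnt10b and Sostdc1 stay where they were within their intervals. A promoter more accessible in the Control cells left out moves up by that choice alone.

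Fibroblast-like cells, in which the keratin 14 promoter is not active, served as the comparison class. The genotypes were spread unevenly over its clusters, which held 80 Control and 475 MOF cKO, 3 and 486, 234 and 221, and 342 and 71 cells, and fibroblast subtypes and genotype cannot be told apart in the class totals. Promoters of the 8 genes had a median change of -0.10, beside -0.03 over all 16039 promoters, and none was past 2-fold, beside 0.779% of all lower and 1.83% higher. The 150 distal regions with at least 20 sites had a median of -0.21, beside 0.05 over all, with 18 past 2-fold lower (7.98% of all were) and 9 past 2-fold higher (12.3% of all were). For 114 of the 150 the interval held 0, beside 69.8% of all distal regions. Scaled by sites per cell the counts were 32 lower and 7 higher, beside 14.03% and 7.60% of all distal regions.

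At single promoters the fibroblast-like cells did not always follow the epithelial-like cells. The intervals of the classes lay on opposite sides of 0 for 1 of the 8 promoters, that of Wnt10b, and for 7 of the 150 distal regions, beside 6.57% of all promoters and 4.59% of all distal regions. Sox9 was higher in MOF cKO in both, in fibroblast-like cells from 30.4 to 44.0 CPM (0.53, 0.39 to 0.67). Wnt10b went from 13.6 to 21.6 CPM (0.67, 0.46 to 0.88) where it was lower in epithelial-like MOF cKO cells. Of its promoter regions, the one at 1.7 kb went from 7.69 to 15.6 CPM (1.02, 0.76 to 1.30) and the one nearer the start from 5.93 to 6.07 CPM (0.03, -0.32 to 0.37). Lhx2 (42.8 to 34.3 CPM, -0.32) and Lef1 (46.7 to 37.0 CPM, -0.34) were lower in MOF cKO fibroblast-like cells too. For Edar (0.22), Wnt10a (-0.19), Foxi3 (-0.01) and Sostdc1 (-0.20) the interval held 0.

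Across 9 groups of at least 50 cells each (hair-follicle-like in Control, suprabasal-like, other epithelial-like (given no sub-cluster name) and fibroblast-like in both genotypes, immune-like and melanocyte-like in MOF cKO), the order of promoter levels differed from gene to gene. The 235 MOF cKO epithelial-like cells in sub-clusters with fibroblast or immune markers high were in none of these groups. Foxi3 was highest in hair-follicle-like cells at 33.4 CPM, clear of the next group, the other MOF cKO epithelial-like cells at 19.9 CPM, and was between 1.24 and 4.19 CPM outside the epithelium. Edar was likewise an epithelial promoter, from 27.3 CPM in hair-follicle-like cells down to 15.1 CPM in MOF cKO suprabasal-like cells, against at most 8.89 CPM elsewhere. Its 3 Control epithelial groups overlapped their neighbours in that order, and the other MOF cKO epithelial-like cells (18.5 CPM) lay clear below the other Control cells (21.9 CPM). Wnt10b and Lef1 had their Control epithelial groups first as well, but the fibroblast-like cells of Control lay among these for Lef1 (46.7 CPM) and last of all for Wnt10b (13.6 CPM).

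The transcription factors Lhx2 and Sox9 had promoters more accessible in fibroblast-like than in epithelial-like cells of the same genotype. The Lhx2 promoter was at 42.8 CPM in both the Control fibroblast-like and the hair-follicle-like cells, and Sox9 was highest in MOF cKO fibroblast-like cells at 44.0 CPM. The Sox9 interval there overlapped that of the next group, the MOF cKO melanocyte-like cells at 33.2 CPM (24.0 to 44.7). Summed over its 24 distal regions, however, Lhx2 was highest in hair-follicle-like cells at 157.8 CPM, clear of the other MOF cKO epithelial-like cells at 84.1 CPM and of the Control fibroblast-like cells at 61.7 CPM. The same sums for Sox9 were highest in the fibroblast-like cells, at 62.3 CPM in Control and 46.7 CPM in MOF cKO, ahead of 32.8 CPM in hair-follicle-like cells. For Dkk4, whose promoter had no shared region, the distal sum was highest in hair-follicle-like cells (33.5 CPM), and the next 4 groups, from 21.7 to 19.0 CPM, each overlapped the one beside it. The immune-like cells were lowest for every promoter but that of Wnt10b.

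**Figure D5:**
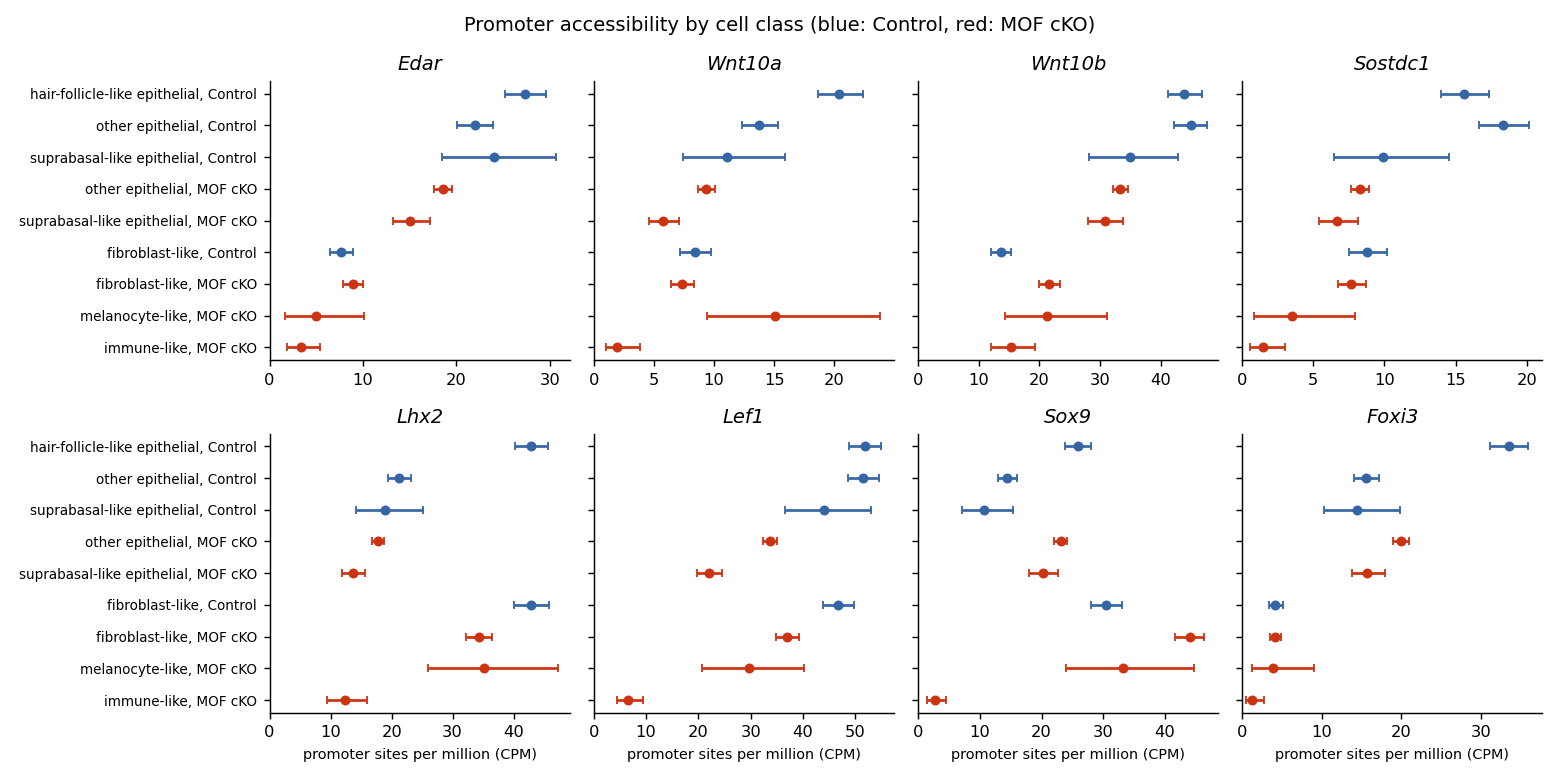
Promoter accessibility of 8 genes, 1 panel a gene, in the 9 groups of at least 50 cells ranked in the text. The horizontal axis gives cut sites as CPM, blue points are Control, red points MOF cKO, and bars are exact 95% Poisson intervals on fragments. Foxi3 is highest in Control hair-follicle-like cells (33.4 CPM), Lhx2 is equally high there and in Control fibroblast-like cells (42.8 CPM), and Sox9 is highest in MOF cKO fibroblast-like cells (44.0 CPM), with an interval that overlaps that of the MOF cKO melanocyte-like cells.

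The promoters most like each gene over these 9 groups were found by the correlation of log2(CPM + 1) among 16162 genes, given as a description since the groups share libraries and depth. Nearest to Lhx2 were Apbb1 (r = 0.990), Ccnjl and Sp9; to Edar, Atp12a (0.988), Clu and Pitpnm3; to Lef1, Hoxb2 (0.996), Hoxb5 and Ntf3; and to Sox9, Wt1 (0.983), Ntrk2 and Tunar. Wnt10a was nearest to Golga7b (0.977), Fst and Rhbdf1, and Wnt10b to F2rl1 (0.973), Adgrf5 and Ano9. Foxi3 was nearest to Mtmr7 (0.991), Abcc8 and Lgals12, and Sostdc1 to Rgs9 (0.983). Between 100 and 365 genes had r over 0.9 with each gene, so these names are the first of many.

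With all epithelial-like cells, the medians over promoters of the surrounding pathways lay between -0.50 and -0.30, beside -0.39 over all promoters. Of 21 other Wnt ligands and R-spondins, 1 was past 2-fold in epithelial-like cells: Rspo2, an enhancer of Wnt signalling, which stood at 3.52 CPM in Control and 7.69 CPM in MOF cKO (1.13, 0.89 to 1.38). That is 4.76% of the list higher and none lower, beside 2.64% and 2.07% of all promoters. The median of that list was -0.49. Wnt secretion genes, receptors and transducers (28 genes) had a median of -0.50, Wnt inhibitors and feedback genes (23 of 27 with a value) -0.33, the Eda and NF-kappaB pathway (17 of 18) -0.30 and other hair follicle epithelial genes (27 of 28) -0.30, beside -0.39 over all promoters. No promoter of these 4 lists was past 2-fold in either direction in this comparison. Without the hair-follicle-like cells the medians were -0.13 for the ligands, -0.38 for secretion genes, receptors and transducers, -0.18 for inhibitors and feedback genes, -0.27 for the Eda and NF-kappaB pathway and -0.12 for the other hair follicle genes, beside -0.35 over all promoters. Past 2-fold higher were then 2 ligands (9.52%), Rspo2 (1.14) and Wnt5a (1.17), and 2 inhibitors (8.70%), Dkk1 (1.19) and Sfrp4 (1.24), beside 3.44% of all promoters, and none was past 2-fold lower. Within Control, 3 ligands or R-spondins (Rspo1, Wnt5a and Wnt9a, 14.3% of the list), 2 receptors (Lgr5 and Lgr6, 7.14%), 2 inhibitors or feedback genes (Nkd1 and Sfrp2, 8.70%) and 2 other hair follicle genes (Krt17 and Shh, 7.41%) were past 2-fold higher in hair-follicle-like cells, beside 3.17% of all promoters, and none of the 5 lists had a promoter past 2-fold lower, beside 1.54% of all. The genes named for these last comparisons were chosen after their values were seen. Of the other hair follicle genes 15, Krt17 and Shh among them, and of the secretion genes, receptors and transducers 3, the receptor Lgr5 among them, belong also to the marker list that named the hair-follicle-like cells, so their difference within Control is no finding. Leaving out cells named by these markers tends to lower the markers' Control level by that choice alone. The medians of these lists without the hair-follicle-like cells are therefore a description.

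Words read by factors of these pathways were counted in the central 300 bp of every distal region. The TCF/LEF words stood in 24 of the 160 regions (15.0%) and in 13.1% of all 165639 distal regions. Among the 36 regions past 2-fold lower they stood in 10 (27.8%), where 19.5% of all lower regions held one, and among the 14 past 2-fold higher in 3, where 12.1% of all higher regions did. The AP-1 word stood in 16 of the 160 regions, beside 17.3% of all distal regions. It stood in 1 of the 36 lower regions (2.78%), where 2.95% of all lower regions held it, and in 7 of the 14 higher regions, where 45.2% of all higher regions did, so both shares were near those of all regions. The homeodomain word stood in 22 of the 160 (13.8%, beside 9.85% of all), the forkhead word in 7 (beside 5.00%) and the SOX word in 4 (beside 3.92%). A word is a description of letters in a window and not a site of binding.

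Some regions were called in 1 library alone, and for these the other library has no value. Of the 319 regions, 41 (12.9%) had a peak only in Control and 75 (23.5%) only in MOF cKO, beside 8.92% and 33.2% of all regions, with 169641002 sites in the Control library and 324310197 in that of MOF cKO. Dkk4 and Sox9 shared the smallest part of their regions, 47.8% and 52.0%, and Wnt10b the largest, 76.3%. Besides the Dkk4 promoter, Control-only regions that were follicle-rich, chosen after their values were seen, were one of Wnt10a at 21 kb (5.54 CPM in hair-follicle-like, 0.325 CPM in the other epithelial-like cells) and one of Wnt10b at 55.7 kb (4.95 and 0.554 CPM). In MOF cKO alone a second Wnt10a start-site region was called, at 1.8 kb (10.8 CPM in epithelial-like cells), beside one at an internal start of Lhx2 at 13.0 kb (2.77 CPM).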

How the data were processed

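Single-cell ATAC-seq was measured in 1 Control and 1 MOF cKO library. The deposited values are unnormalized counts of Tn5 cut sites in each peak of each barcode, which the authors made with Cell Ranger ATAC and a Cell Ranger ARC reference package, with peaks and cells called per library on mm10 (GRCm38). Both peak lists fit the chromosome lengths of GRCm38. Even counts made up 88.8% (Control) and 91.6% (MOF cKO), so intervals were computed on fragments (sites divided by 2).

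Peaks were merged with bedtools 2.31.1, and only merged regions that both libraries had a peak in were compared. Genes came from GENCODE M21. Barcodes with at least 1000 sites were kept (2481 of 2541 in Control, all 4348 in MOF cKO). The 50000 most widely detected regions, the 319 at the 9 genes left out, were weighted by TF-IDF, 2 of 30 components correlated with depth were dropped, and Leiden clustering ran on 20 neighbours at resolution 1. Clusters were named where at least 3 markers were 2-fold higher at promoters and 1 class had the highest share of its markers, unless 3 times the median depth was below the library's median and no marker was among the top 10 genes, and epithelial sub-clusters, made within each library, where at least 3 were 1.5-fold higher over gene bodies. After the clusters were seen, 1 deep cluster with epithelial (8 of 12) and fibroblast (6 of 12) markers, 104 Control and 6 MOF cKO cells with a median of 158540 sites, was set aside (with it the median promoter change of the genes was -0.54), and 3 clusters stayed unnamed and in no class. These were shallow clusters of 297 Control and 6 MOF cKO cells (median 2483 sites, 9 of 12 epithelial markers) and of 1 and 72 cells (20608 sites, 8 of 12), and a cluster of 18 and 70 cells with equal shares of fibroblast (8 of 12) and mural markers (6 of 9). No other doublets were removed, and an alternative leaves out the highest 5% of doublet scores.

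Counts were summed per class and library, scaled to sites in shared regions (CPM), and compared as log2 ratios for features with at least 20 sites. Exact conditional binomial 95% intervals were given. Their code was run on counts simulated under the counting model they assume, with 2 sites per fragment. That run cannot show how well the intervals hold for the real cells. There was no test. The members and lists were chosen with earlier results of these data known. All 9 genes are named. Of each, the distal region with the lowest and the highest change among those with at least 100 sites is named, and so are pathway genes past 2-fold and the 3 promoters most alike over the 9 groups. A few items that this rule names are not reported here. Scripts ran under Python 3.11.15 (numpy 2.4.6, scipy 1.17.1, pandas 2.3.3, scikit-learn 1.9.0, leidenalg 0.10.2 and matplotlib 3.10.9).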

Additional observations from a re-analysis of the deposited data

Results flagged for a closer look

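For 1 promoter and 7 distal regions the change of MOF cKO against Control had its counting interval wholly on one side of 0 in epithelial-like cells and wholly on the other side in fibroblast-like cells. These were 1 of 8 promoters and 7 of 150 distal regions, beside 6.57% of all promoters and 4.59% of all distal regions. With 1 library per genotype none of these differences between the classes was tested. Values are the log2 change in epithelial-like minus that in fibroblast-like cells.

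The Wnt10b promoter differed by -1.10 (-0.43 and 0.67 in that order). The Wnt10b region at -2.8 kb differed by -1.27 (-0.44 and 0.82). At Lef1 the region at -42.7 kb differed by -2.97 (-1.29 and 1.67) and the one at 60.1 kb by 2.82 (1.47 and -1.35), so a pair of regions of 1 gene stood on opposite sides. The fibroblast-like intervals of this pair were wide, 0.10 to 3.68 at -42.7 kb and -2.38 to -0.27 at 60.1 kb. The Edar region at 31.0 kb differed by -1.88 (-0.79 and 1.09), and the Lhx2 region at -23.5 kb by -1.12 (-0.87 and 0.25). At the Lhx2 region the fibroblast-like interval came close to 0 (0.03 to 0.47). The region of Sox9 at 29.1 kb differed by 0.888 (0.29 and -0.60), and that of Foxi3 at -44.2 kb by 0.753 (0.15 and -0.61).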

How the results depend on the processing

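With 1 library per genotype, replicates could not be left out. No paired analysis was possible because each genotype has 1 library, so the groups share fewer than 2 replicate numbers. Scaling moved the median of all promoters in epithelial-like cells from -0.39 to -0.54 (all sites in own peaks), -0.37 (median of ratios) and -0.30 (sites per cell). The median promoter change of the genes, -0.57, became -0.72 with own peaks, -0.48 per cell, and -0.38 or -0.40 without hair-follicle-like cells of sub-clustering at resolution 1 or 2, which were alternatives chosen after seeing the data. The Foxi3 promoter reversed to 0.27 and 0.11 in these, the second with an interval that held 0. Distal regions past 2-fold numbered 36 lower and 14 higher; with a flank of 20 kb they were 22 and 6, in gene bodies alone 14 and 4 (fewer regions in both), with own peaks 46 and 12 (beside 12.3% and 18.7% of all), and without hair-follicle-like cells 22 were higher at either resolution. The median distal change stayed between -0.69 and -0.30 over 16 alternatives. In fibroblast-like cells the medians ranged from -0.38 to -0.09 at promoters and from -0.49 to -0.12 at distal regions. Between hair-follicle-like and other Control cells, thinned cells gave 18 distal regions past 2-fold higher (35 unthinned; 85 of 160 kept 20 sites), and scaling per cell a promoter median of 0.70 and 4 regions past 2-fold lower (0.45 and 7 otherwise). The cause of these shifts was not tested. Counting error is small for most promoters, but nothing here measures variation between embryos or libraries.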

Other observations

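At sub-clustering resolution 2, 37 MOF cKO cells lay in a sub-cluster with 5 of 22 hair follicle markers high. This is under the minimum of 50 cells, so its values are given with no comparison. Of the 37 cells, 22 lay in cluster 3, which held 544 Control and 24 MOF cKO cells. The study reported mosaic H4K16ac in the epidermis of a younger MOF cKO embryo. Whether Mof was deleted in these 37 cells cannot be seen from the data and was not tested. Promoter levels were 38.3 CPM for Lhx2, 20.5 CPM for Edar, 37.4 CPM for Lef1, 26.9 CPM for Sox9, 8.20 CPM for Wnt10a, 41.9 CPM for Wnt10b, 29.6 CPM for Foxi3 and 17.8 CPM for Sostdc1. Summed over distal regions, Lhx2 stood at 150.4 CPM and Edar at 165.9 CPM.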
